A study of Mus musculus with 10 samples.

Results

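Conventional dendritic cells take up material from dying tumor cells, carry it to the draining lymph node and show it to T cells. They come in 2 main types. Type 1 cells depend on the transcription factors IRF8 and BATF3, sense dead cells through the lectin CLEC9A and cross-present, that is, they load antigen taken up from outside onto MHC class I for CD8+ T cells, a task for which WDFY4 is needed. Type 2 cells mainly prime CD4+ T cells. Both arise from precursors that carry the receptor FLT3 and respond to its ligand. The log2 signals of 10 genes of these cells were followed here, out of 19505 genes measured, each through the probe set of that gene with the highest mean (all 10 had a single probe set). Clec9a, Batf3, Irf8, Itgae and Wdfy4 mark type 1 cells and are called type 1 genes below. Flt3, Zbtb46, Itgax, Cd209a and Fscn1 stand for conventional dendritic cells as a whole, for CD209a+ cells of the type 2 and monocyte-derived kind and for mature cells, and are called the other genes.

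The 10 tumors, 5 shPC and 5 Ctrl, came from the mouse mammary cancer line M-Wnt, whose cells had been transduced with a doxycycline-inducible shRNA against Pcx, the gene of pyruvate carboxylase, and both groups carried it. Grafts of 50000 cells went into the fat pad of the 4th mammary gland of C57BL6/J mice, which the methods give as female and 8 to 12 weeks old. The shPC mice drank 150 µg/ml doxycycline and the Ctrl mice standard water, so the drug and the knockdown cannot be told apart, and no source used here gives the time at which these tumors were excised. RNA of whole tumors, host cells included, was put on Clariom S arrays, 1 per tumor. Fewer dendritic cells and less RNA per cell cannot be told apart in such samples, and an array does not allow the level of one gene to be set against that of another. The deposited values are read as log2 signals, although no source used here gives the base or the normalization. Their maxima of 19.04 to 19.19 exceed what a 16-bit scanner gives in log2, so sizes hold for the scale as deposited and no fold changes are given. Differences are shPC minus Ctrl with their standard error (SE). The labels number the tumors 1 to 5 within each group beside the word mouse, and a p-value reflects only how far these tumors spread.

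Pcx itself (Entrez Gene 18563) was at 9.91, 4.69, 9.39, 4.49 and 5.15 in shPC tumors 1 to 5, against 10.43, 7.24, 11.01, 7.79 and 9.54 in Ctrl tumors 1 to 5. Its groups overlapped, with shPC 1 and shPC 3 inside the Ctrl range (difference -2.48, SE 1.19, adjusted p = 0.378 by limma). The mean of 14 fat cell genes was 12.10 in shPC 1 and 11.13 in shPC 3, against 6.42 to 7.17 in the other shPC tumors, and in the Ctrl tumors it was highest in Ctrl 3, as Pcx was, so Pcx signals of whole tumors do not show the knockdown of the cancer cells by themselves. The part of fat cells in it was not tested. The array of shPC 5 had a median signal of 7.16, against 7.35 to 7.47 on the other 9 arrays, and it was the lowest of all tumors for 8 of the 10 dendritic cell genes, among them all 5 type 1 genes. The counts over the 10 genes, their differences and the medians of lists are therefore also given without it where they moved. All 5 type 1 genes lay above the 30th percentile of the array in all 10 tumors, whereas Zbtb46 did so in 4 of 10 tumors and is close to background. Whether the 5 signals come from type 1 cells cannot be read from whole tumors.

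Of the 10 genes 8 were lower and 2 higher in the shPC tumors, with a median difference of -0.65 (-0.35 without shPC 5), beside a median of 0.04 over all genes. None of the 10 passed an adjusted p of 0.05 in limma, and neither did any of the 19505 genes (0% called). At an unadjusted p under 0.05, 5 of the 10 were lower (Irf8, Itgae, Batf3, Flt3 and Itgax), beside 6.25% of all genes, and 0 were higher, beside 7.8% of all genes. For 3 of them (Irf8, Itgae and Itgax) all shPC tumors lay below all Ctrl tumors, which 1.79% of all genes showed, and for 0 all shPC tumors lay above, which 1.82% showed. Without shPC 5 the counts were 4 lower at an unadjusted p under 0.05 and 3 with groups apart, again Irf8, Itgae and Itgax, beside 2.07% of all genes.

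**Figure D1:**
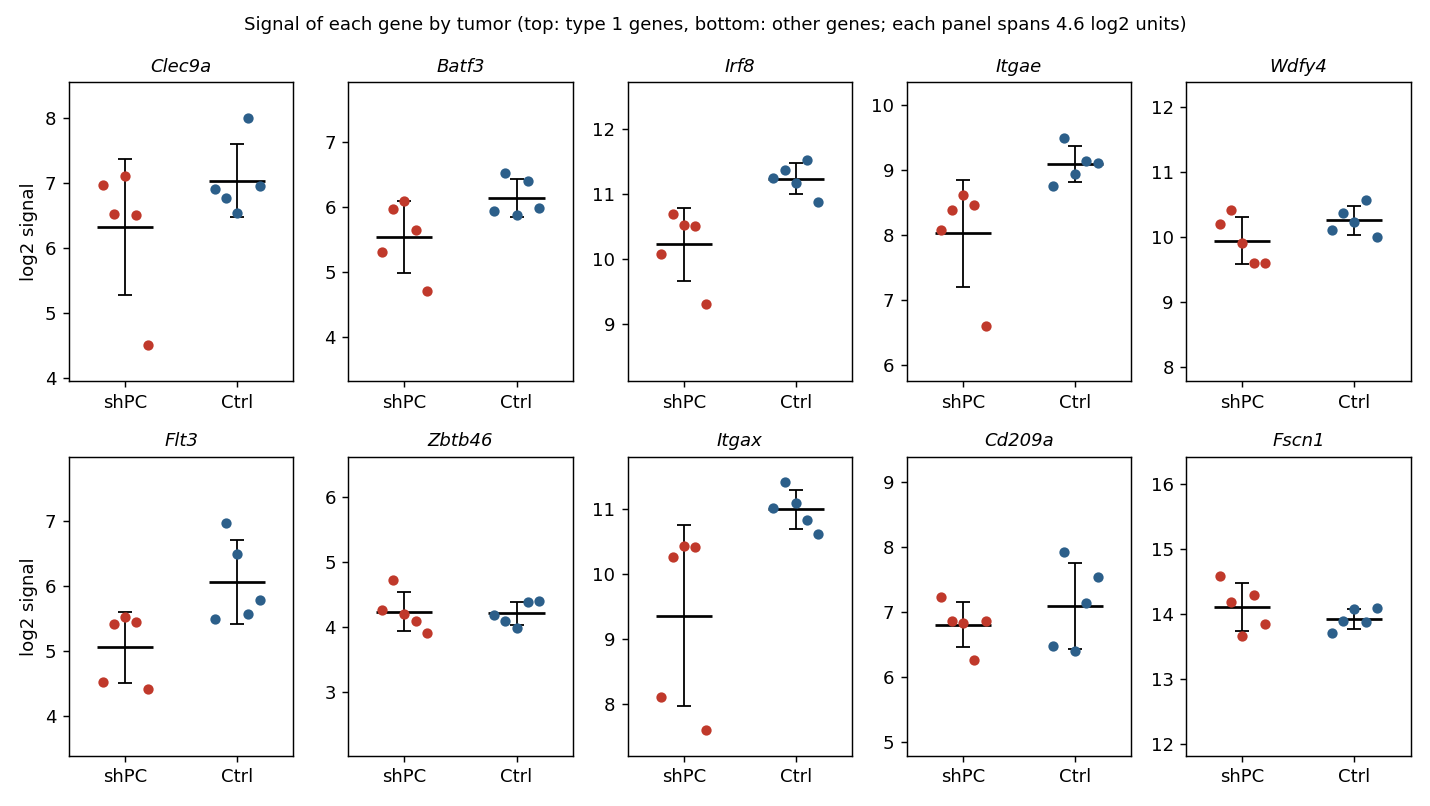
The log2 signal of each gene (vertical axis, each panel spanning the same width of the scale) in the 5 shPC tumors on the left and the 5 Ctrl tumors on the right of each panel, with tumors 1 to 5 drawn from left to right. Bars give mean ± SD (n = 5 each). The groups lie apart for Irf8, Itgae and Itgax, and shPC 5, the rightmost shPC point, is lowest in all 5 panels of the upper row.

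Irf8 and Batf3 encode the transcription factors that type 1 cells need to arise and to persist. IRF8 is also made by B cells, monocytes, macrophages and plasmacytoid dendritic cells, and BATF3 by activated T cells, so neither signal belongs to 1 cell type. Irf8 was at 10.08, 10.69, 10.52, 10.50 and 9.31 in shPC tumors 1 to 5, against 11.24, 11.37, 11.17, 11.52 and 10.87 in Ctrl tumors 1 to 5. Its groups did not overlap, and shPC 5 was the lowest tumor and Ctrl 4 the highest. The difference was -1.01 (SE 0.25, 95% interval -1.56 to -0.46, adjusted p = 0.193 by limma, and p = 0.00794 in the exact permutation test, two-sided, the smallest that 5 tumors against 5 allow). Without shPC 5 it was -0.79 (SE 0.18). Batf3 was at 5.30, 5.96, 6.09, 5.64 and 4.71 in shPC tumors 1 to 5, against 5.94, 6.52, 5.87, 6.39 and 5.98 in Ctrl tumors 1 to 5. Here the groups overlapped, with shPC 2 and shPC 3 inside the Ctrl range and 3 shPC tumors below it. The difference was -0.60 (SE 0.26, 95% interval -1.17 to -0.03, adjusted p = 0.332 by limma, exact permutation p = 0.0714), and -0.39 without shPC 5.

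Because Irf8 and Batf3 moved together across the tumors and Itgax with them, the upstream sequence of the genes was searched for 4 motifs of factors that act in these cells. RefSeq (GRCm38.p6) gave a promoter for 9 of the 10 genes (10 promoters, of which Irf8 has 2), and Itgae was not matched. The 250 bases before each start were read on both strands. The GAS motif TTCNNNGAA, bound by STAT factors downstream of interferon gamma, stood in 1 of the 2 Irf8 promoters, at 2 places, and in that of Batf3, and 7.02% of all 32851 promoters hold it. The AP-1 motif TGANTCA, which BATF3 and JUN can bind as a pair, stood in the promoters of Itgax and Zbtb46, beside 6.75% of all promoters. The motifs GAAANNGAAA (2.98% of all promoters) and GGAANNGAAA (2.3%), read by IRF factors alone or with PU.1, were in none of the 10 windows. These are matches of letters and not mapped binding sites. The stretches of the 3 genes with a match that were lower at an unadjusted p under 0.05 are shown 5′ to 3′ in the direction of the gene, with the motif in capitals. They lie at chr8:120736167-120736233 (plus strand, bases -191 to -125 before the start) for Irf8, at chr1:191098164-191098203 (plus strand, -250 to -211) for Batf3 and at chr7:128129474-128129520 (plus strand, -76 to -30) for Itgax.
Irf8: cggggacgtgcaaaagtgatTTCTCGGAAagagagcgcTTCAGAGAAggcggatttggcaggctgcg
Batf3: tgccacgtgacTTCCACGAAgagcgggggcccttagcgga
Itgax: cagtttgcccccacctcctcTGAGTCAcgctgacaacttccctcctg

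Clec9a, Itgae and Wdfy4 encode proteins with which type 1 cells do their work. CLEC9A, the receptor for actin exposed by dead cells, is the most restricted marker of the 5, although precursors carry it too. Clec9a was at 6.97, 6.53, 7.12, 6.52 and 4.51 in shPC tumors 1 to 5, against 6.91, 6.77, 6.55, 8.0 and 6.96 in Ctrl tumors 1 to 5. The groups overlapped widely, and the difference of -0.71 (SE 0.46, 95% interval -1.72 to 0.30, adjusted p = 0.512 by limma, exact permutation p = 0.246) came with 1 tumor far from the rest in each group, shPC 5 below and Ctrl 4 above. Without shPC 5 it was -0.25 (SE 0.28). Itgae encodes the integrin CD103, which type 1 cells of tissues share with resident CD8+ T cells. It was at 8.08, 8.39, 8.61, 8.46 and 6.6 in shPC tumors 1 to 5, against 8.76, 9.50, 8.94, 9.14 and 9.11 in Ctrl tumors 1 to 5. The groups did not overlap, although shPC 3 and Ctrl 1 were close to each other. The difference was -1.06 (SE 0.34, 95% interval -1.81 to -0.31, adjusted p = 0.236 by limma, exact permutation p = 0.00794) and -0.71 without shPC 5. Wdfy4 was at 10.20, 10.41, 9.90, 9.60 and 9.59 in shPC tumors 1 to 5, against 10.11, 10.36, 10.22, 10.56 and 10.00 in Ctrl tumors 1 to 5. It overlapped, with shPC 2 above 4 of the 5 Ctrl tumors, and its difference was -0.31 (SE 0.19, 95% interval -0.73 to 0.11, adjusted p = 0.487 by limma, exact permutation p = 0.143), the smallest in size of the 5 type 1 genes. WDFY4 is also made by B cells.

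Of the other genes Flt3 and Itgax were lower at an unadjusted p under 0.05. Flt3 encodes the receptor that keeps precursors and mature conventional dendritic cells alive. It was at 4.52, 5.41, 5.52, 5.44 and 4.41 in shPC tumors 1 to 5, against 5.50, 6.97, 6.50, 5.57 and 5.78 in Ctrl tumors 1 to 5, so that 4 of the 5 shPC tumors lay below every Ctrl tumor and shPC 3 lay just above Ctrl 1. The difference was -1.0 (SE 0.33, 95% interval -1.74 to -0.27, adjusted p = 0.242 by limma, exact permutation p = 0.0159) and -0.84 without shPC 5. Itgax encodes CD11c, which many macrophages, monocytes and NK cells of the mouse carry as well. It was at 8.11, 10.27, 10.43, 10.42 and 7.60 in shPC tumors 1 to 5, against 11.02, 11.42, 11.10, 10.84 and 10.62 in Ctrl tumors 1 to 5. The groups did not overlap, and shPC 1 and shPC 5 lay far below the other 3 shPC tumors. Its difference of -1.63 (SE 0.55, 95% interval -2.83 to -0.43, adjusted p = 0.243 by limma, exact permutation p = 0.00794) was the largest in size of the 10 genes, and it was -1.19 without shPC 5.

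The remaining 3 genes had small differences inside the spread between tumors. Zbtb46 encodes a transcription factor of conventional dendritic cells and their precursors that endothelial cells also make. Its signal was at 4.25, 4.72, 4.19, 4.08 and 3.91 in shPC tumors 1 to 5, against 4.18, 4.09, 3.98, 4.38 and 4.39 in Ctrl tumors 1 to 5, and the difference was 0.03 (SE 0.17, 95% interval -0.34 to 0.39, adjusted p = 0.959 by limma). This is not a difference between signals clearly above background. Cd209a, a lectin of type 2 and monocyte-derived dendritic cells, was at 7.22, 6.85, 6.83, 6.25 and 6.86 in shPC tumors 1 to 5, against 6.47, 7.92, 6.39, 7.14 and 7.53 in Ctrl tumors 1 to 5 (difference -0.29, SE 0.30, 95% interval -0.95 to 0.37, adjusted p = 0.692 by limma). The difference was -0.08 without Ctrl 2, -0.15 without shPC 4, -0.18 without Ctrl 5, -0.44 without Ctrl 1 and -0.46 without Ctrl 3. Its Ctrl tumors spread over a wider range than its shPC tumors, and shPC 5 was in no way extreme. Fscn1, which encodes the actin-bundling protein fascin of mature dendritic cells and of mesenchymal and tumor cells, was at 14.58, 14.18, 13.65, 14.29 and 13.84 in shPC tumors 1 to 5, against 13.71, 13.89, 14.07, 13.87 and 14.08 in Ctrl tumors 1 to 5 (difference 0.18, SE 0.18, 95% interval -0.21 to 0.58, adjusted p = 0.672 by limma).

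**Figure D2:**
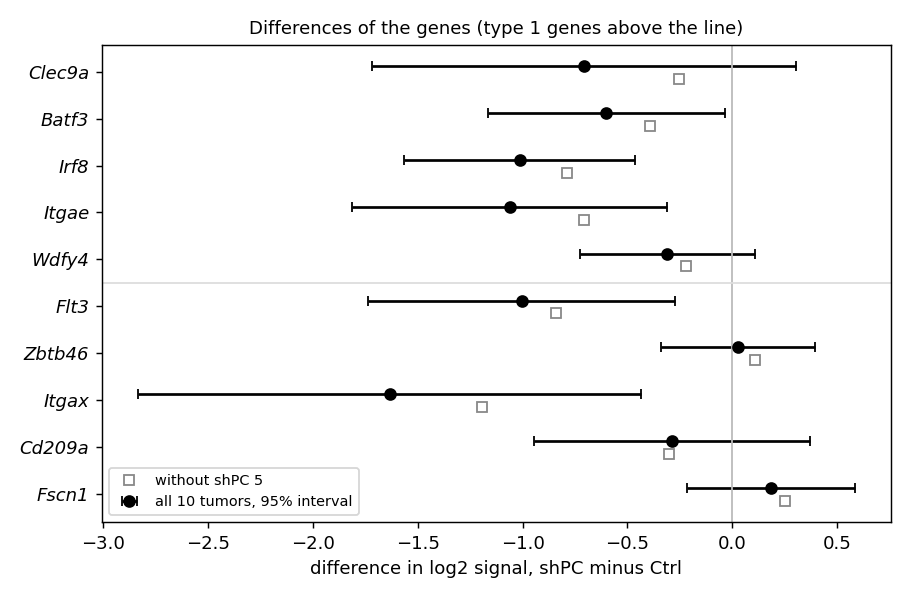
Differences in log2 signal, shPC minus Ctrl, of the 5 type 1 genes (above the line) and the 5 other genes. Filled circles give all 10 tumors with limma's 95% interval, and open squares give the difference without shPC 5, which is closer to 0 for all 5 type 1 genes.

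The type 1 genes were next set against the other 5. All 5 type 1 genes were lower, 3 of them at an unadjusted p under 0.05 and 2 with groups apart, and their median difference was -0.71 (-0.39 without shPC 5). Of the other genes 3 were lower and 2 higher, 2 were lower at an unadjusted p under 0.05 and 1 had groups apart, with a median of -0.29 (-0.30 without shPC 5). The gap between the medians was thus -0.42 with all tumors and -0.09 without shPC 5, with a range of -0.69 to -0.09 over all tumors left out in turn. It was -0.06 with all tumors once a filter on low values had removed Zbtb46. Per tumor, the mean of the type 1 genes was 8.13, 8.40, 8.45, 8.14 and 6.94 in shPC tumors 1 to 5, against 8.59, 8.90, 8.55, 9.12 and 8.58 in Ctrl tumors 1 to 5, and the groups did not overlap. The mean of the other genes was 7.74, 8.29, 8.12, 8.10 and 7.32 in shPC tumors 1 to 5, against 8.18, 8.86, 8.41, 8.36 and 8.48 in Ctrl tumors 1 to 5, where shPC 2 reached into the Ctrl range. Within a tumor the type 1 mean minus the other mean averaged 0.10 ± 0.30 in shPC tumors and 0.29 ± 0.30 in Ctrl tumors (SD, n = 5 each). That difference of -0.20 (-0.08 without shPC 5) is smaller than the spread between tumors of 1 group, and it was not tested further.

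Among themselves the type 1 genes went together across the 10 tumors. Over their 10 pairs Pearson's r had a median of 0.78 (0.61 to 0.93), over the 25 pairs of a type 1 gene with another gene 0.38, and over the 10 pairs of other genes 0.10. These r include the group difference and the low values of shPC 5, the lowest tumor for all 5 type 1 genes. Without shPC 5 the medians were 0.44, 0.18 and -0.02, and with the group means removed 0.76, 0.32 and 0.10. The tightest pairs were Batf3 with Itgae (r = 0.93), Irf8 with Itgae (0.93), Irf8 with Itgax (0.92) and Batf3 with Irf8 (0.91), so Itgax went with Irf8 as closely as the type 1 genes went with each other, whereas its r was 0.62 with Clec9a and 0.44 with Wdfy4. Both of these rested on shPC 5, without which they were -0.00099 for Clec9a and 0.098 for Wdfy4. Clec9a, the most restricted of the 5, kept r = 0.40 with Batf3, 0.36 with Irf8 and 0.28 with Itgae once shPC 5 was left out, whereas Batf3, Irf8 and Itgae kept 0.81 to 0.85 among each other. Fscn1 had an r of -0.35 with Itgax and -0.31 with Batf3 over the 10 tumors. These were -0.74 and -0.75 without shPC 5, and -0.18 and -0.14 with the group means removed, so their size depends on that tumor and on the groups.

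The genes with the pattern most like the mean of the standardized type 1 genes over the 10 tumors were Clec12a (r = 0.96), Lrrtm2 (0.96), Sectm1a (0.95), Ciita (0.95) and Ccdc141 (0.94), and r was 0.81 to 0.88 for these 5 without shPC 5. Clec12a encodes an inhibitory lectin of myeloid cells, and its log2 signal was at 13.56, 13.88, 13.83, 13.71 and 12.52 in shPC tumors 1 to 5, against 14.07, 14.07, 14.17, 14.34 and 14.10 in Ctrl tumors 1 to 5. Ciita encodes the coactivator that turns on MHC class II genes. Its difference of -1.59 (SE 0.54, adjusted p = 0.247 by limma) came with groups that did not overlap, as did that of Clec12a (-0.65, SE 0.24, adjusted p = 0.268 by limma). Both are members of lists read below, Clec12a of the type 2 list and Ciita of the list of conventional dendritic cells as a whole.

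Further lists of genes were then read for the steps before and after the 10 genes. A list is described by its counts and its median difference, beside the percentages and the median of all genes given above, and no gene of any list passed an adjusted p of 0.05 (lowest 0.148 by limma). Among signals that attract, feed or receive dendritic cells, 8 of 13 genes were lower at an unadjusted p under 0.05 and 1 higher, and 3 had groups apart (median -0.74, and -0.62 without shPC 5). Xcl1, the chemokine of NK and CD8+ T cells whose receptor XCR1 is restricted to type 1 cells, was at 7.67, 7.62, 7.98, 7.68 and 6.09 in shPC tumors 1 to 5, against 8.67, 9.90, 8.54, 8.01 and 9.12 in Ctrl tumors 1 to 5 (difference -1.44, SE 0.40, adjusted p = 0.198 by limma). All 5 shPC tumors lay below all 5 Ctrl tumors, with Ctrl 4 only just above shPC 3. Ccl4 and Ccl3, inflammatory chemokines, also had groups apart, with differences of -1.55 (SE 0.29, adjusted p = 0.148 by limma) and -2.21 (SE 0.59, adjusted p = 0.194 by limma). The ligand of FLT3, Flt3l, named after its values were seen, was at 7.97, 8.90, 8.24, 8.13 and 7.26 in shPC tumors 1 to 5, against 8.74, 9.05, 9.02, 9.22 and 8.86 in Ctrl tumors 1 to 5 (difference -0.88, SE 0.25, adjusted p = 0.208 by limma). Only shPC 2 reached the Ctrl range, so ligand and receptor both had 4 of 5 shPC tumors below every Ctrl tumor.

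Of 19 further genes of type 1 cells 6 were lower and 1 was higher at an unadjusted p below 0.05, and 0 had groups apart (median -0.45, and -0.26 without shPC 5). Tlr11 and Tlr3, sensors of microbial profilin and of double-stranded RNA, had differences of -0.86 (SE 0.25, adjusted p = 0.206 by limma) and -0.67 (SE 0.21, adjusted p = 0.224 by limma). Cxxc5, a zinc finger protein that many other cells make too, was the 1 higher gene (0.66, SE 0.20, adjusted p = 0.221 by limma). Xcr1, the receptor of XCL1, was named after its values were seen as the counterpart of that chemokine. It was at 7.86, 9.43, 8.86, 8.78 and 5.86 in shPC tumors 1 to 5, against 9.61, 8.52, 9.25, 10.01 and 9.30 in Ctrl tumors 1 to 5. Its difference of -1.18 (SE 0.58, adjusted p = 0.385 by limma, exact permutation p = 0.103) lay within the spread and was -0.61 without shPC 5, so the 2 most restricted type 1 receptors, Xcr1 and Clec9a, both had overlapping groups.

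For cross-presentation and antigen processing 10 of 16 genes were lower at an unadjusted p under 0.05 and 0 higher, and 4 had groups apart (median -0.48, and -0.37 without shPC 5). Rac2 and Cybb, a regulator and the catalytic subunit of the phagosomal NADPH oxidase, had differences of -0.88 (SE 0.23, adjusted p = 0.194 by limma) and -0.87 (SE 0.23, adjusted p = 0.194 by limma). Tap2, a subunit of the transporter that carries peptides to MHC class I in all nucleated cells, had a difference of -0.99 (SE 0.27, adjusted p = 0.198 by limma). These genes are not particular to dendritic cells.

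The maturation list had the most members lower among the dendritic cell lists. Of 20 genes that dendritic cells switch on as they mature 16 were lower and 0 were higher at an unadjusted p below 0.05, and 3 had groups apart (median -0.84, and -0.69 without shPC 5). Cd274 encodes PD-L1, an inhibitory ligand that tumor cells and macrophages make as well. It was at 10.05, 10.46, 11.08, 10.97 and 8.19 in shPC tumors 1 to 5, against 12.37, 12.37, 12.69, 12.01 and 11.91 in Ctrl tumors 1 to 5, and its groups lay apart (difference -2.12, SE 0.47, adjusted p = 0.185 by limma). Cd40, the receptor through which helper T cells license dendritic cells, was at 9.89, 9.55, 9.99, 9.27 and 8.96 in shPC tumors 1 to 5, against 10.59, 11.24, 11.14, 10.28 and 10.30 in Ctrl tumors 1 to 5 (difference -1.18, SE 0.26, adjusted p = 0.185 by limma). It too had groups apart. Pdcd1lg2, which encodes PD-L2, had -3.28 (SE 0.84, adjusted p = 0.194 by limma) with overlapping groups. Fscn1, the mature-cell gene among the 10, had its difference of 0.18 in the other direction.

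Among 17 genes of type 2 cells 11 were lower and 6 higher at any p (median -0.48, and -0.32 without shPC 5). At an unadjusted p under 0.05, 5 of them were lower and 0 higher, and 2 had groups apart. Irf4, a transcription factor that type 2 cells need and that activated lymphocytes also make, had a difference of -1.46 (SE 0.58, adjusted p = 0.294 by limma), and Cd7, an immunoglobulin family protein of lymphocytes, -1.14 (SE 0.37, adjusted p = 0.24 by limma). The type 2 list thus had nearly the same median as the further type 1 list. Genes of conventional dendritic cells as a whole and of their precursors had 5 of 16 lower and 0 higher at an unadjusted p below 0.05 (13 lower and 3 higher at any p), 2 with groups apart, and a median of -0.50 (-0.26 without shPC 5). Of these Jaml, an adhesion molecule of leukocytes, had -1.40 (SE 0.39, adjusted p = 0.198 by limma) with groups apart, and Dpp4, which encodes CD26, had -0.78 (SE 0.28, adjusted p = 0.26 by limma).

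Plasmacytoid dendritic cells, the producers of type I interferon, had 5 of 14 genes lower and 1 higher at an unadjusted p below 0.05 (11 lower and 3 higher at any p), and 2 with groups apart (median -0.44, and -0.38 without shPC 5). The 2 with groups apart, Bst2 (-0.77, SE 0.17, adjusted p = 0.185 by limma) and Irf7 (-1.71, SE 0.49, adjusted p = 0.206 by limma), are induced by interferon in most cells. Tcf4, which plasmacytoid cells need and which mesenchymal cells make in quantity, was the higher one (0.49, SE 0.14, adjusted p = 0.205 by limma). The defining gene Siglech was at 8.03, 5.90, 7.16, 6.74 and 5.59 in shPC tumors 1 to 5, against 7.13, 7.42, 7.56, 7.32 and 6.15 in Ctrl tumors 1 to 5, and overlapped. The 5 genes of Langerhans cells, 3 of which epithelial or other stromal cells make too, had 2 lower at an unadjusted p under 0.05 and 1 higher, with a median of 0.19 (0.33 without shPC 5).

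**Figure D3:**
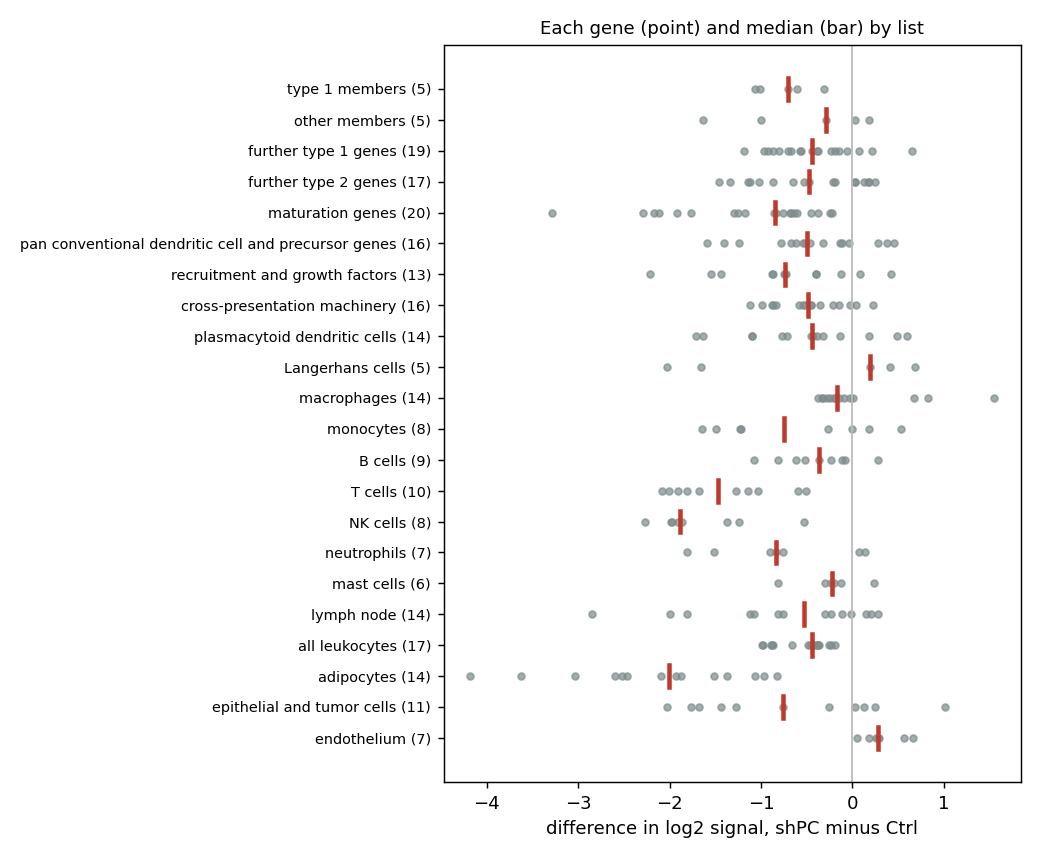
Differences in log2 signal, shPC minus Ctrl, of every measured gene (points) in the type 1 genes, the other genes and 20 further lists, with the number of measured genes in parentheses and the median of each list as a red bar. The medians of the conventional dendritic cell lists lie between -0.84 and -0.29, those of T and NK cells lie lower and that of macrophages lies nearer to 0.

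Several of the 10 genes are also made by other leukocytes, whose marker genes are given next. Of 17 genes common to all leukocytes 14 were lower and 0 were higher at an unadjusted p below 0.05, and 3 had groups apart (median -0.44, and -0.43 without shPC 5). Their mean was 12.39 to 12.95 in shPC tumors and 13.07 to 13.52 in Ctrl tumors, so the groups did not overlap. Ptprc, which encodes CD45, had a difference of -0.89 (SE 0.22, adjusted p = 0.194 by limma). The dendritic cell genes were refitted with this mean as a covariate, which leaves the part of a difference that does not go along with the leukocyte signal. The difference was then -0.35 for Irf8, -0.09 for Itgae, 0.065 for Itgax, 0.17 for Flt3, 0.076 for Batf3, 0.0086 for Clec9a and 0.0010 for Wdfy4, and 0 of the 10 genes were lower at an unadjusted p under 0.05. The median was 0.0010 for the type 1 genes and 0.10 for the others. The covariate had no overlap between the groups, so group and leukocyte signal cannot be told apart in these tumors, and the part of other leukocytes in the lower signals was not tested.

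**Figure D4:**
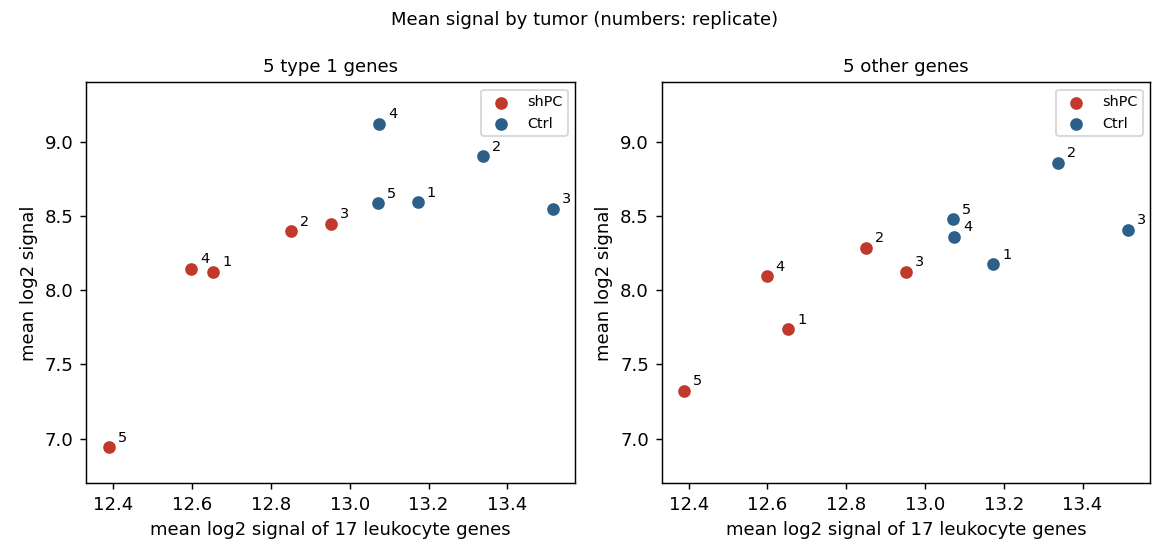
Mean log2 signal of the 5 type 1 genes (left) and the 5 other genes (right) in each tumor, against the mean of 17 genes common to all leukocytes (horizontal axis), with the replicate number beside each point. All 5 shPC tumors lie at a lower leukocyte mean than all 5 Ctrl tumors, and shPC 5 is lowest on both axes.

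By cell type, T cell genes were lower for 7 of 10 at an unadjusted p under 0.05 (median -1.47, and -0.82 without shPC 5) and NK cell genes for 7 of 8, 4 of them with groups apart (median -1.88, and -1.26 without shPC 5). Cd3e, a chain of the T cell receptor complex, was at 11.41, 11.88, 12.61, 11.69 and 7.71 in shPC tumors 1 to 5, against 13.49, 13.13, 14.10, 12.47 and 12.53 in Ctrl tumors 1 to 5. Here too shPC 5 stood far below the other shPC tumors, as it did for Clec9a and Itgae. The mean of the T cell list was 6.33 to 9.90 in shPC tumors and 9.66 to 10.88 in Ctrl tumors, and that of the NK list 6.30 to 9.20 in shPC tumors and 9.47 to 10.47 in Ctrl tumors. The part of T cells in the Itgae signal was not tested.

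Macrophages and monocytes share Itgax and Irf8 with dendritic cells. Of 14 macrophage genes 2 were lower at an unadjusted p under 0.05 and 2 higher (median -0.16, and -0.21 without shPC 5), and their mean was 12.90 to 13.60 in shPC tumors and 13.06 to 13.29 in Ctrl tumors. The defining gene Adgre1, which encodes a surface receptor of mouse macrophages, was at 13.86 to 14.31 in shPC tumors and 14.18 to 14.48 in Ctrl tumors. The lower ones were Fcgr1 (-0.37, SE 0.14, adjusted p = 0.276 by limma) and C1qa (-0.32, SE 0.13, adjusted p = 0.298 by limma). C1qa was the 1 gene of this list with groups apart, all shPC tumors lying below all Ctrl tumors. Mrc1 and Vsig4, genes of resident macrophages, were the higher ones (0.83, SE 0.32, adjusted p = 0.284, and 1.55, SE 0.44, adjusted p = 0.205, by limma). Without shPC 5 these differences were 0.53 and 1.255, and Vsig4 lay above the 30th percentile in 7 of 10 tumors. Of 8 monocyte genes 6 were lower and 2 higher, F13a1 (0.54) and Fn1 (0.18), with a median of -0.75 (-0.36 without shPC 5). At an unadjusted p under 0.05, 3 of the 8 were lower, each with groups apart, among them Ly6c2 (-1.64, SE 0.50, adjusted p = 0.221 by limma). Of 9 B cell genes 8 were lower, 1 of them at an unadjusted p under 0.05 (median -0.36, and -0.34 without shPC 5), and Ms4a1, which encodes CD20, was above the 30th percentile in 2 of 10 tumors. Of 7 neutrophil genes 5 were lower, 4 of them at an unadjusted p under 0.05 (median -0.83, and -0.72 without shPC 5), and of 6 mast cell genes 5 were lower, 1 at an unadjusted p under 0.05 (median -0.22, and -0.09 without shPC 5). No list gene is listed at 0, and the part of each of these cell types in the signals of the 10 genes was not tested.

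Lymph node tissue close to the mammary fat pad also holds dendritic cells. Of 14 lymph node genes 3 were lower and 0 were higher at an unadjusted p below 0.05, and 0 had groups apart (median -0.53, and -0.41 without shPC 5). Their mean was 5.59 to 6.94 in shPC tumors and 6.94 to 7.73 in Ctrl tumors. The defining genes Glycam1 and Madcam1, adhesion molecules of lymph node vessels, and Clec4g were under the 30th percentile of the array in all 10 tumors. Of the 3 lower genes Cd22 had the smallest p (difference -2.0, SE 0.61, adjusted p = 0.221 by limma), with overlapping groups. Cxcl13, a chemokine of B cell follicles that macrophages and T cells in tumors also make, had a difference of -2.85 (SE 0.97, adjusted p = 0.248 by limma), and Ccr7, the receptor that guides mature dendritic cells to lymph nodes, -0.76 (SE 0.25, adjusted p = 0.243 by limma). With the mean of this list as a covariate the differences were -0.52 for Irf8, -0.26 for Itgae, -0.56 for Itgax and -0.25 for Flt3, and 0 of the 10 genes were lower at an unadjusted p under 0.05. This mean hardly overlapped between the groups, so group and lymph node signal can hardly be told apart either. The part of lymph node tissue in the lower signals was not tested. The genes of fat cells, the tissue into which the tumors were grafted, had a mean of 6.42 to 12.10 in shPC tumors and 9.12 to 13 in Ctrl tumors (14 of 14 lower, 1 of them at an unadjusted p under 0.05, median -2.01, and -1.63 without shPC 5), and with their mean as a covariate 4 of the 10 dendritic cell genes were lower at an unadjusted p under 0.05. Epithelial and tumor cell genes had 2 of 11 lower and 1 higher at an unadjusted p below 0.05 (median -0.75, and -0.47 without shPC 5). The lower ones were the epithelial genes Epcam (-2.03, SE 0.74, adjusted p = 0.267 by limma) and Cdh1 (-1.76, SE 0.63, adjusted p = 0.26 by limma). The higher one was Cdh2 (1.01, SE 0.33, adjusted p = 0.235 by limma), which alone had groups apart. At any p 7 were lower, the keratin genes, Epcam, Cdh1 and Prrx1, and 4 higher, Vim, Twist1, Zeb1 and Cdh2. Of 7 endothelial genes 7 were higher, with an unadjusted p under 0.05 for 0 of them (median 0.28, and 0.37 without shPC 5).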

How the data were processed

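Whole M-Wnt tumors (5 shPC and 5 Ctrl, 1 Clariom S array each) were grouped by their labels. The authors labelled RNA with the WT PLUS kit, analysed the arrays in Transcriptome Analysis Console 4.0.1 and deposited values on a log scale, taken here as log2 signals, for 22206 probe sets. No source used here gives the base or the normalization. A single gene is named for 19572 probe sets, and the 2634 without an entry in the probe annotation were dropped. The highest-mean probe set stood for each of the 55 genes with several, which left 19505 genes. Arrays give no counts, and their number limits the precision.

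Groups were compared for all genes with limma 3.58.1 in R 4.3.3 (statmod 1.5.0, default moderation, no filter, Benjamini-Hochberg over all genes, threshold 0.05). Single genes were also compared by the exact permutation test over the 252 splits into groups of 5, two-sided. The fit was tested on simulated data with 200 changed genes. Promoter sequences came from RefSeq (GRCm38.p6).

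The 10 genes, their division and the gene lists were chosen with earlier results of these data known, the lists being written from general knowledge. Named were the 10 genes, from each list up to 3 genes by smallest p, defining genes of other cell types, Pcx and the 5 genes most like the type 1 genes (predicted genes and variable segments left out). Flt3l, Xcr1 and C1qa were added after their values were seen. Alternatives were quantile normalization, centring each array on its median, only genes above the 30th percentile of the array in at least 5 arrays, trended robust variances, array weights, the methods' t-test with equal variances or Welch's correction, averaging the probe sets of a gene, a block for the replicate number, a covariate for the mean of the leukocyte, lymph node or adipocyte list, leaving out each tumor, and leaving out Ctrl 1 and shPC 5 together.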

Additional observations from a re-analysis of the deposited data

Results flagged for a closer look

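In 6 of 66 sets of 5 values, 1 tumor stood further from its own group than Dixon's limit of 0.71 of the range allows, which chance does for about 1 in 20 sets. In 5 of the 6 that tumor was shPC 5. Clec9a was at 4.51 in shPC 5, against 6.52 to 7.12 in the other shPC tumors. Itgae was at 6.6 in shPC 5, against 8.08 to 8.61 in the other shPC tumors. The mean of the 5 type 1 genes was 6.94 in shPC 5, against 8.13 to 8.45 in the other shPC tumors. The mean of the genes of all conventional dendritic cells and their precursors was 8.94 in shPC 5, against 9.62 to 9.87 in the other shPC tumors, and that of lymph node genes was 5.59, against 6.59 to 6.94. In the other direction, Clec9a was at 8.0 in Ctrl 4, against 6.55 to 6.96 in the other Ctrl tumors. These values share tumors and genes and are not independent of each other.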

How the results depend on the processing

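Of 857 values of 38 results under 23 alternatives, 9 differences of single genes changed sign. Another 37 counts or medians moved by more than their bound (1.5 times for counts, 1 SD between tumors for medians). Some medians changed sign as well, among them the gap between the medians and the T cell median. The differences of single genes were compared by sign and threshold only, and some shrank, such as Clec9a to -0.053 with the lymph node covariate and Itgae to -0.089 with the leukocyte covariate. None of the 10 genes passed an adjusted p of 0.05 under any of them (lowest 0.114, Irf8). Irf8, Itgae, Cd209a and Fscn1 kept their direction under all 23. With the leukocyte mean as a covariate Clec9a was at 0.0086, Batf3 at 0.076, Wdfy4 at 0.0010, Flt3 at 0.17 and Itgax at 0.065. Zbtb46 was at -0.017 with the adipocyte covariate, and -0.0965 to 0.106 when single tumors were left out (-0.0965 without shPC 2, -0.0025 without Ctrl 2 and -0.03 without Ctrl 3). Genes lower at an unadjusted p under 0.05 numbered 3 of 10 with Welch's correction, 0 with the leukocyte covariate, 0 with the lymph node covariate and 4 to 6 when single tumors were left out. The type 1 median was 0.0010 with the leukocyte and -0.11 with the lymph node covariate, and -0.91 to -0.39 when single tumors were left out. The median of the other genes was 0.099 with the leukocyte covariate and -0.65 with the filter on low values, which removed Zbtb46. The gap between the medians was -0.062 with that filter, -0.098 with the leukocyte and 0.10 with the lymph node covariate, 0.015 without Ctrl 1 and shPC 5 together, and -0.69 to -0.09 when single tumors were left out (-0.09 without shPC 5). Medians of lists with the leukocyte covariate were 0.11 for further type 1, 0.24 for type 2, 0.10 for maturation, 0.20 for precursor, -0.18 for recruitment, -0.019 for cross-presentation, 0.12 for plasmacytoid, 0.028 for monocyte, 0.97 for T cell, 0.086 for NK cell, -0.079 for neutrophil, 0.32 for lymph node, -0.032 for leukocyte and 0.33 for adipocyte genes. With the lymph node covariate they were -0.041 for further type 1, 0.041 for type 2, -0.0032 for precursor, -0.27 for recruitment, -0.18 for cross-presentation, -0.096 for monocyte, 0.093 for T cell, -0.45 for NK cell and -0.042 for lymph node genes. The medians of the leukocyte and lymph node lists under their own covariate tell nothing, since it is the mean of the same genes. The leukocyte list also shares Rac2 with the cross-presentation list and Ikzf1 with the precursor list. The lymph node list shares Ltb with the type 2 list and Ccr7 with the maturation list. It also shares Cr2, Fcer2a, Ms4a1 and Cd79a with the B cell list. The monocyte median was -0.037 with the adipocyte covariate, and the Langerhans median -0.62 with the filter, which removed Cd207. Apart from genes removed by the filter and lists set against their own mean, the cause of these shifts was not tested. The replicate numbers did not pair the tumors, since the deviations of same-numbered tumors correlated at 0.04 to 0.28 with 2 of 5 over 0.1 and 1 of 5 tumors closest to its own number. With the replicate number as a block 5 of the 10 genes were lower at an unadjusted p under 0.05 and 0 passed the adjusted test.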
